A study of Homo sapiens with 12 samples.

Results

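The effect of ZA was estimated across both levels of SFN in MDA-MB-231 cells, a human triple-negative breast cancer line. All 12 of the 12 libraries entered: the 6 from cells given ZA, alone or with SFN, were compared with the 6 from cells without it, in an additive model with 1 term for SFN and 1 for ZA. Only the ZA term is described. Of 57905 genes in the table, 15142 passed the low-count filter and were tested. Treatment lasted 48 h and was vehicle, a mix of DMSO and water, or 1 µM SFN, or 0.5 µM ZA, or 1 µM SFN and 0.5 µM ZA together (SFN+ZA), and each of the 4 groups had 3 libraries. All groups share the same cell line, and nothing in the labels says that replicates came from separate cultures, so p-values measure the spread between these libraries, which may be technical. The labels spell out neither abbreviation; SFN usually stands for sulforaphane and ZA for zoledronic acid.

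Zoledronic acid is a nitrogen-containing bisphosphonate used against bone loss and bone metastasis. It blocks farnesyl diphosphate synthase, the mevalonate pathway enzyme encoded by FDPS, which supplies farnesyl and geranylgeranyl groups. Small GTPases such as RHOA, CDC42 and RAP1A carry these lipid groups to reach membranes, and the isopentenyl diphosphate that builds up before the block is sensed by gamma-delta T cells through butyrophilins. Sulforaphane, an isothiocyanate from cruciferous plants, is known for switching on NRF2 target genes.

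The libraries held 15.3 to 25.4 M (mega) counts and 18001 to 22117 detected genes. All 16 markers of MDA-MB-231 and basal B lines were detected, with a summed level of 6707 to 9309 counts per M (CPM). Of 14 blood and immune cell markers 2 passed the filter, their list summed to 2.89 to 6.84 CPM, and CD3E, MS4A1, FCGR3A and HBB were at 0 in every library; PDGFRA and PGR were at 0 among the fibroblast and luminal markers. Vehicle 2 and SFN 2 stood apart from the rest, so each result is also given from the other 10 libraries, in which 15353 genes were tested. Library makeup moved with ZA. Mitochondrial genes took 4.26 to 5.30% of the counts in the 6 libraries with ZA against 0.775 to 4.32% in the 6 without. Spearman's rho across genes between GC content and a library's deviation from the median library was 0.229 to 0.640 in 5 libraries with ZA but -0.467 in ZA 1, and ran from -0.799 to -0.249 in 5 libraries without ZA but was 0.533 in vehicle 1. The part of the mitochondrial and ribosomal RNA shares in the results below was not tested; fits with an offset for GC content are given beside those without.

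**Figure D1:**
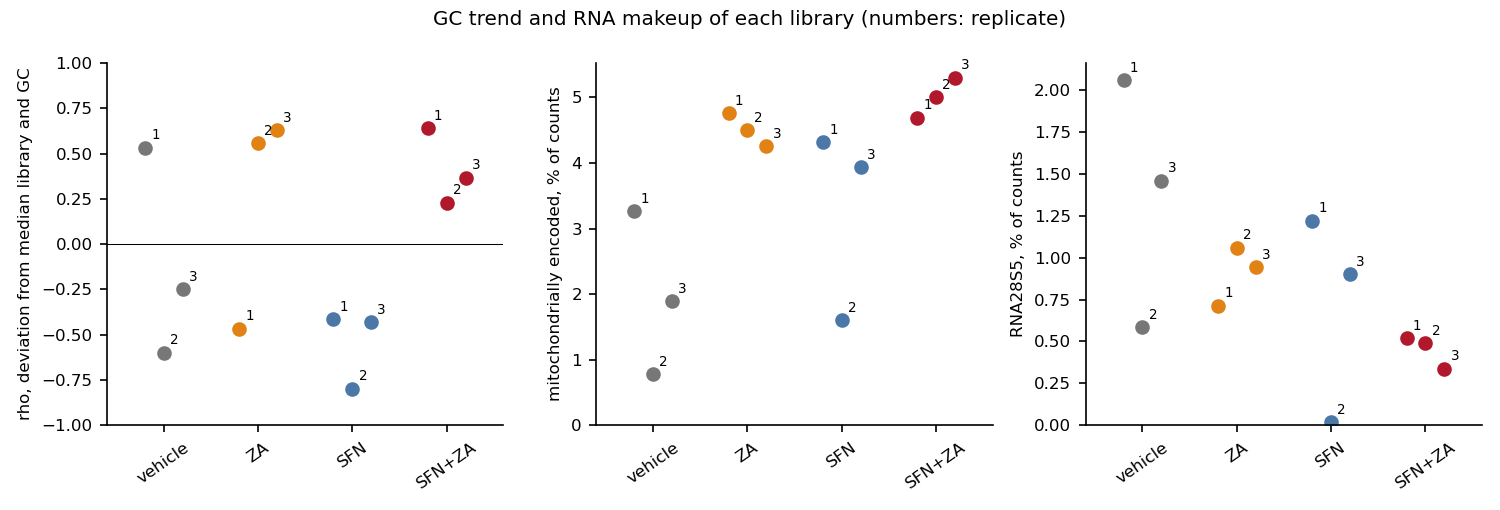
For each of the 12 libraries, by group, the left panel plots the rank correlation (Spearman's rho) of GC content with each gene's deviation from the median library in log2 CPM, the middle panel the percent of counts on mitochondrial genes and the right panel the percent of counts on RNA28S5; digits are replicate numbers. ZA 1 lies at -0.467 in the left panel, apart from ZA 2 and ZA 3, and the libraries with ZA lie at 4.26% or more in the middle panel.

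In the 12-library fit no gene passed an adjusted p of 0.05 for the ZA term in either direction (0 higher, 0.0%, and 0 lower, 0.0%, of 15142; edgeR quasi-likelihood test with Benjamini-Hochberg adjustment, lowest adjusted p = 0.28). At an unadjusted p under 0.05 there were 848 genes higher (5.6%) and 1782 lower (11.8%) with ZA. DESeq2 and limma, run on the same 12 libraries, gave other counts. The DESeq2 Wald test called 16 higher and 0 lower, and voom with sample quality weights called 2588 higher (17.1%) and 2842 lower (18.8%). The levels of all 6 libraries with ZA lay above all 6 without it for 126 genes (0.832%) and below for 51 genes (0.337%). Without vehicle 2 and SFN 2 the edgeR test called 3 genes higher (0.0195%) and 1 lower (0.00651%) of 15353, with 1092 higher (7.11%) and 807 lower (5.26%) at an unadjusted p under 0.05. The called genes were the lincRNAs RP4-555D20.2 and RP11-159D12.2 and the protein-coding gene PABPC1L, which rose, and the 28S ribosomal RNA gene RNA28S5, which fell. Over all genes tested, the 6 libraries with ZA lay above the 4 others for 178 genes (1.16%) and below for 99 (0.645%).

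RP4-555D20.2 (chr3:44158791-44163857, plus strand, GRCh37) was at 24.6, 31.7 and 20.7 CPM in vehicle 1, 2 and 3 and at 33.8, 19.4 and 33.4 CPM in SFN 1, 2 and 3. It was at 37.5, 40.3 and 39.7 CPM in ZA 1, 2 and 3 and at 55.0, 48.7 and 62.5 CPM in SFN+ZA 1, 2 and 3. Every library with ZA lay above every library without it, and the combination held the 3 highest values. The ZA term was 0.77 ± 0.16 (log2 fold change ± SE) with 12 libraries (adjusted p = 0.28) and 0.75 ± 0.09 with 10 (adjusted p = 0.019; edgeR quasi-likelihood test). RP11-159D12.2 (chr17:56066400-56072211, minus strand) was at 14.3, 22.8 and 16.2 CPM in vehicle, 29.0, 22.3 and 28.7 CPM in SFN, 32.9, 31.5 and 34.2 CPM in ZA and 46.4, 38.2 and 52.3 CPM in SFN+ZA, replicates in order. Again no library with ZA reached down to the range of those without it, although SFN 1 and SFN 3 came close to ZA 2. Its ZA term was 0.83 ± 0.14 with 12 libraries (adjusted p = 0.28) and 0.86 ± 0.11 with 10 (adjusted p = 0.025). No function is given here for either lincRNA.

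PABPC1L (chr20:43538703-43587676, plus strand, GRCh37), a cytoplasmic poly(A)-binding protein best known from oocytes, was at 29.3, 26.9 and 27.6 CPM in vehicle and 39.4, 7.87 and 36.3 CPM in SFN. It was at 37.7, 51.3 and 46.4 CPM in ZA and 79.4, 63.7 and 77.0 CPM in SFN+ZA. Within each SFN level the libraries with ZA lay above those without, but ZA 1 lay below SFN 1, so the pooled groups overlap. SFN 2 lay far below every other library, and the ZA term was 1.05 ± 0.31 with 12 libraries (adjusted p = 0.28) and 0.80 ± 0.11 with 10 libraries (adjusted p = 0.025; edgeR quasi-likelihood test). TOMM34 overlaps this gene on the other strand, and no source used here gives the strand setting of the counting. Leaving out 1 further library at a time gave adjusted p-values of 0.0001 to 0.22 for PABPC1L, 0.00066 to 0.12 for RP4-555D20.2, 0.0019 to 0.2 for RP11-159D12.2 and 0.017 to 0.22 for RNA28S5. No gene was called when SFN 1, SFN 3, SFN+ZA 1, SFN+ZA 3, ZA 2, ZA 3 or vehicle 3 was left out. Without SFN+ZA 2 only both lincRNAs were called, and without vehicle 1 there were 13 higher and 0 lower of 16091. Without ZA 1 there were 1232 higher (8.06%) and 1438 lower (9.41%) of 15284. Those higher had a median of 58.6% GC and those lower 40.2%, against 48.4% over all genes tested with 10 libraries.

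SLC25A27, a carrier of the inner mitochondrial membrane also called UCP4, had the lowest unadjusted p among the protein-coding genes higher with ZA in the 12-library fit (chr6:46620678-46645930, plus strand, GRCh37). It was at 6.46, 9.03 and 7.10 CPM in vehicle, 11.7, 10.3 and 11.5 CPM in SFN, 12.5, 13.7 and 13.8 CPM in ZA and 17.0, 14.8 and 17.8 CPM in SFN+ZA. The lowest library with ZA, ZA 1, lay above the highest without it, SFN 1. The ZA term was 0.69 ± 0.12 with 12 libraries (adjusted p = 0.28) and 0.72 ± 0.12 with 10 (adjusted p = 0.068; edgeR quasi-likelihood test), while DESeq2 called it with 12 libraries at 0.70 (adjusted p = 0.00027). The 250 bases before the annotated starts of SLC25A27 and PABPC1L are shown because the first leads the 12-library ranking and the second is the protein-coding gene called with 10. They are from RefSeq on GRCh38.p14, plus strand, at chr6:46652725-46652974 and chr20:44909810-44910059, 5′ to 3′, and capitals mark a match to an antioxidant response element core.
SLC25A27: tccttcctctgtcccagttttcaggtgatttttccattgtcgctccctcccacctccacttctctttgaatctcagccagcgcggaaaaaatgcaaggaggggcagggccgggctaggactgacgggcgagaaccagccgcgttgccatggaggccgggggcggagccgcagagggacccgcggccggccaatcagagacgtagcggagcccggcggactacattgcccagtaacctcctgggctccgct
PABPC1L: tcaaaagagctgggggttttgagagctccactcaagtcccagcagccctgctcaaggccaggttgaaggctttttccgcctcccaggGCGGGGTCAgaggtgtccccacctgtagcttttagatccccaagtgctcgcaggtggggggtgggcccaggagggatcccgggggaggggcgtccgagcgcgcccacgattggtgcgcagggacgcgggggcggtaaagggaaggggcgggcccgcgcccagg
Both windows are GC-rich, at 63.2% and 67.6% GC with 19 and 16 CpG, against medians of 58.0% and 11 over all 35116 RefSeq promoters. Searched on both strands, the SREBP element TCACNCCAC was in 0.883% of all promoters, the antioxidant response element core TGACNNNGC in 10.9% and the TEAD element GGAATG in 11.9%. PABPC1L holds 1 match to the antioxidant core, on the reverse strand, and SLC25A27 holds none of the 3 motifs; a match is a string of letters and not evidence of binding.

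Other genes led the ranking by unadjusted p without passing the edgeR threshold in the 12- or 10-library fit. NEAT1, the long noncoding RNA that builds paraspeckles, was at 192.9, 205.7 and 135.7 CPM in vehicle, 201.4, 116.1 and 212.2 CPM in SFN, 228.4, 290.3 and 337.8 CPM in ZA and 516.2, 324.5 and 442.2 CPM in SFN+ZA. All 6 libraries with ZA lay above all 6 without, and its ZA term was 0.98 ± 0.20 (adjusted p = 0.28) with 12 libraries and 0.91 ± 0.15 (adjusted p = 0.068) with 10. MALAT1, the neighbouring nuclear RNA, ran from 268.8 to 374.6 CPM with ZA and from 249.9 to 338.9 CPM without, with a ZA term of 0.03 ± 0.10. GSDMB, a member of the pore-forming gasdermin family, was at 0.998, 0.954 and 1.19 CPM in vehicle, 1.23, 0.396 and 1.09 CPM in SFN, 1.71, 2.73 and 2.98 CPM in ZA and 3.85, 2.21 and 3.33 CPM in SFN+ZA. Its levels did not overlap either, although 1 CPM is only 15.3 to 25.4 reads in these libraries; the ZA term was 1.51 ± 0.29 with 12 libraries (adjusted p = 0.28) and 1.29 ± 0.24 with 10 (adjusted p = 0.09). L3MBTL1, a chromatin reader of methylated lysines, lay at 17.5 to 27.0 CPM with ZA and at 2.83 to 15.1 CPM without, with 0.70 ± 0.11 in the 10-library fit (adjusted p = 0.068).

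REC8, a cohesin subunit of meiosis, NICN1 and DNAH1, a dynein heavy chain of cilia and flagella, were also without overlap, at 10-library ZA terms of 1.04 ± 0.18, 0.62 ± 0.11 and 0.74 ± 0.13 (adjusted p = 0.087 for each). GABBR1, a subunit of the GABA-B receptor, had 0.69 ± 0.11 (adjusted p = 0.068) and LTB4R, a receptor for leukotriene B4, 0.92 ± 0.15 (adjusted p = 0.087), both with overlap between the pooled groups. LTB4R2, which overlaps LTB4R on the same strand, had 1.36 ± 0.26 with 12 libraries (adjusted p = 0.28), and reads of these neighbours may be shared. KCNAB3, a subunit of potassium channels, and POU5F1, a pluripotency factor with overlapping genes and pseudogenes elsewhere in the genome, had 12-library ZA terms of 1.26 ± 0.30 and 1.04 ± 0.22, both at an adjusted p of 0.28. Of the 16 genes that DESeq2 called with 12 libraries, 7 were also among 85 called by edgeR with 10 libraries and the GC correction described below. That edgeR fit called 0.541% of all genes higher and 0.013% lower. The 10 libraries are among the 12, so the overlap is not independent support.

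**Figure D2:**
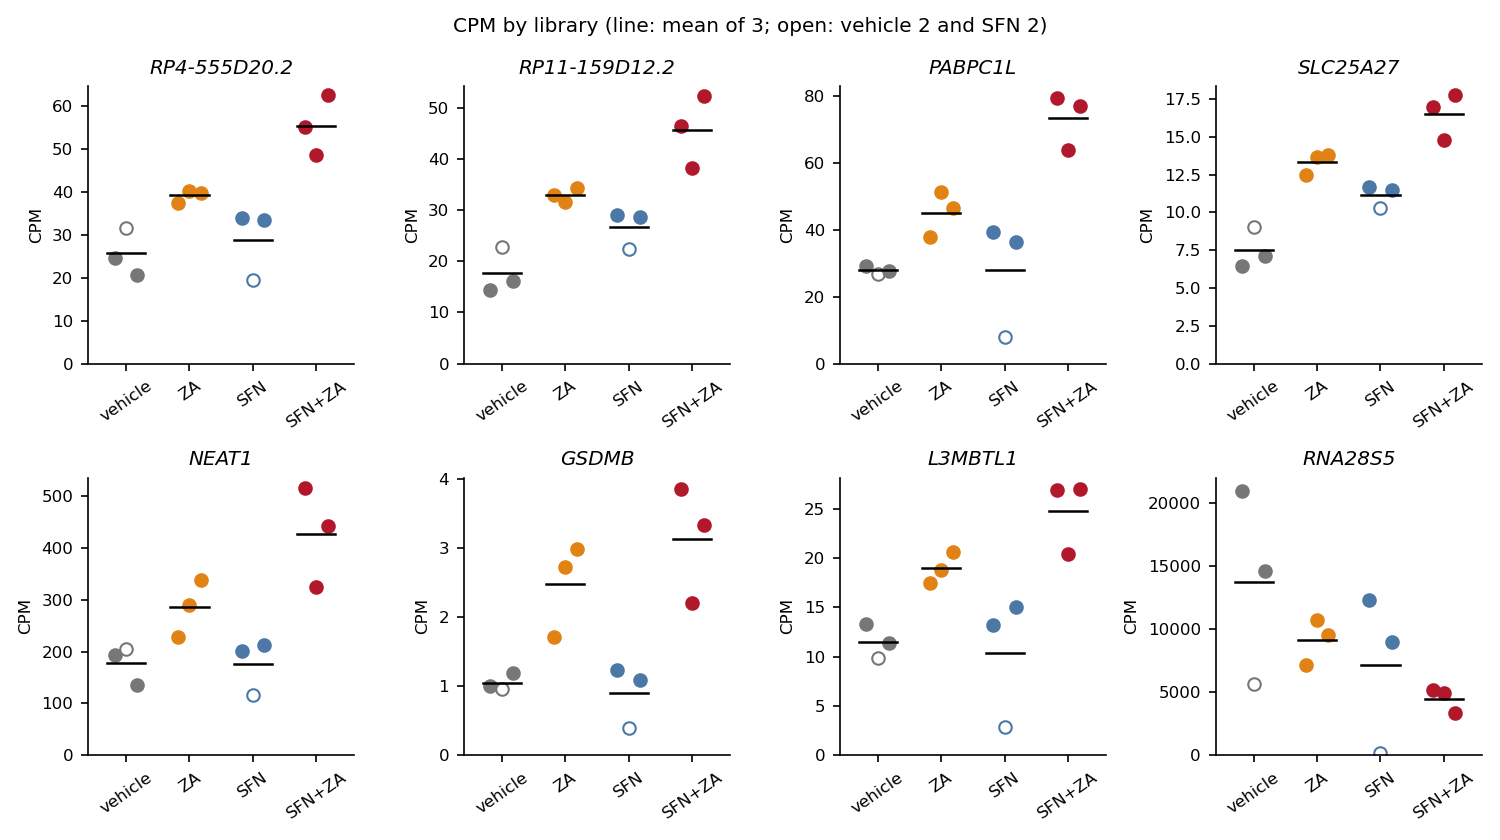
CPM in each library for RP4-555D20.2, RP11-159D12.2, PABPC1L, SLC25A27, NEAT1, GSDMB, L3MBTL1 and RNA28S5, by group (vehicle, ZA, SFN, SFN+ZA); lines are means of 3 libraries and open circles are vehicle 2 and SFN 2. SLC25A27 lies between 12.5 and 17.8 CPM with ZA and between 6.46 and 11.7 CPM without, while PABPC1L in SFN 2 (7.87 CPM) lies far below the other SFN libraries.

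The genes with the lowest unadjusted p among those lower with ZA passed the edgeR threshold in neither the 12- nor the 10-library fit. C12orf5, now named TIGAR, encodes a fructose-bisphosphatase that slows glycolysis; it was at 6.65, 7.24 and 7.81 CPM in vehicle, 7.62, 16.2 and 7.47 CPM in SFN, 5.82, 5.35 and 4.18 CPM in ZA and 4.64, 5.67 and 3.82 CPM in SFN+ZA. Every library with ZA lay below every library without it, and the ZA term was -0.82 ± 0.23 with 12 libraries (adjusted p = 0.28) and -0.59 ± 0.14 with 10 (adjusted p = 0.18; edgeR quasi-likelihood test). CHCHD2, a small mitochondrial protein that also acts in the nucleus, lay at 284.8 to 313.4 CPM with ZA and at 322.0 to 340.3 CPM without, a narrow but complete separation with a term of -0.20 ± 0.05 in the 10-library fit (adjusted p = 0.26). RABL5, an intraflagellar transport subunit, lay at 12.5 to 15.9 CPM with ZA and 17.6 to 23.0 CPM without. TMA7, a ribosome-associated protein whose gene overlaps CCDC51, lay at 34.7 to 43.7 CPM with ZA and 47.4 to 112.8 CPM without. Both were without overlap, at 10-library terms of -0.30 ± 0.09 and -0.33 ± 0.08. Those of IFT57, of the same transport machinery, and the ribosomal protein gene RPS27 were -0.33 ± 0.09 and -0.31 ± 0.08. HIST1H3H, a histone H3 gene, had -1.21 ± 0.30 with 10 libraries (adjusted p = 0.18) at 0.555 to 1.39 CPM with ZA.

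RNA28S5, on the unplaced scaffold GL000220.1, was the 1 gene that fell in the 10-library fit. It was at 20967, 5639 and 14578 CPM in vehicle and 12300, 166.8 and 8930 CPM in SFN. It was at 7116, 10686 and 9508 CPM in ZA and 5149, 4896 and 3346 CPM in SFN+ZA. Within each SFN level, once vehicle 2 and SFN 2 were set aside, both remaining libraries without ZA lay above the 3 with it, but the pooled groups overlapped. The ZA term was -1.12 ± 0.16 with 10 libraries (adjusted p = 0.032; edgeR quasi-likelihood test) and -0.63 ± 0.64 with 12 (adjusted p = 0.49). Ribosomal RNA is the bulk of cellular RNA and is usually removed or avoided when a library is made, so its level here is what remained after a step that no source used here describes; a lower cell content and a lower remainder cannot be told apart.

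A list of 15 genes of the mitochondrial genome, for subunits of oxidative phosphorylation and both ribosomal RNAs but not the transfer RNAs, had every ZA term above 0 in the 12- and the 10-library fit. None was called in either; 6 and 12 were higher at an unadjusted p under 0.05, against 5.6% and 7.11% of all genes, and the list's median was 1.00 and 0.56 against 0.02 and -0.00 over all genes tested. MT-CO1, the catalytic subunit of cytochrome c oxidase, was at 6537, 1935 and 3895 CPM in vehicle, 8830, 5677 and 7378 CPM in SFN, 9376, 9554 and 8614 CPM in ZA and 10220, 11028 and 11900 CPM in SFN+ZA. SFN 1 lay above ZA 3, so the pooled groups overlap, and the ZA term was 0.88 ± 0.25 with 12 libraries (adjusted p = 0.28) and 0.62 ± 0.13 with 10 (adjusted p = 0.13). MT-CO3, another subunit of that enzyme, had 1.00 ± 0.35 and 0.68 ± 0.16, and MT-ND4L, a subunit of complex I whose gene overlaps MT-ND4, 1.05 ± 0.36 and 0.68 ± 0.25. The summed level of the 15 genes was 42703 to 47426 CPM in ZA and 46339 to 52352 CPM in SFN+ZA, against 7462 to 33076 CPM in vehicle and 16591 to 43590 CPM in SFN. In the 10-library fit the list's median was 0.87 without SFN and 0.16 with it. For MT-ND4L these were 1.27 and 0.13, and the difference between them was -1.14 (adjusted p = 0.59). The 33 respiratory chain subunits encoded in the nucleus had medians of -0.19 and -0.08 with 12 and 10 libraries. At an unadjusted p under 0.05, 0.0% were higher and 30.3% lower with 12 libraries (all genes 5.6% and 11.8%). With 10 libraries 0.0% were higher and 9.09% lower (all genes 7.11% and 5.26%). With 10 libraries and the GC offset these shares were 0.0% and 27.3% (all genes 7.4% and 7.79%). Whether RNA per cell or the mix of cells differed cannot be told apart in bulk RNA.

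Because GC content moved with ZA in these libraries, the fits were repeated with an offset for each library's GC trend. With 12 libraries the edgeR test again called 0 genes (1859 at an unadjusted p under 0.05, lowest adjusted p = 0.094). The offset moved the median of all 12-library ZA terms from 0.02 to 0.09, with 69.1% of genes above 0, so a sign in that fit is to be read against 0.09; with 10 libraries the median stayed at -0.00. With 10 libraries it called 83 genes higher (0.541%) and 2 lower (0.013%), 3 of them among the 4 called without the offset. The 83 higher had a median of 53.7% GC and the 2 lower 46.9%, against 48.4% over all genes tested with 10 libraries. OGT, the enzyme that adds O-linked N-acetylglucosamine to nuclear and cytosolic proteins, had the lowest adjusted p. It was at 182.8, 247.7 and 190.6 CPM in vehicle, 274.3, 184.8 and 281.9 CPM in SFN, 276.8, 263.1 and 235.3 CPM in ZA and 328.6, 344.9 and 374.4 CPM in SFN+ZA. ZA 1 to 3 overlapped SFN 1 and SFN 3, while SFN+ZA stood above all others. Its ZA term was 0.47 ± 0.04 (adjusted p = 0.00019; edgeR quasi-likelihood test, 10 libraries, GC offset) against 0.39 ± 0.07 without the offset (adjusted p = 0.087).

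In that fit PABPC1L, RP4-555D20.2 and RP11-159D12.2 rose by 0.76 ± 0.08, 0.79 ± 0.08 and 0.97 ± 0.10 (adjusted p = 0.00026, 0.00026 and 0.0003), and SLC25A27 by 0.82 ± 0.11 (adjusted p = 0.0023). Further genes named above that rose there were GABBR1 (0.60 ± 0.07), L3MBTL1 (0.64 ± 0.09), LTB4R (0.86 ± 0.12), NICN1 (0.57 ± 0.09), REC8 (0.92 ± 0.17), GSDMB (1.27 ± 0.24) and DNAH1 (0.63 ± 0.13). NEAT1 had 0.99 ± 0.23 and was not called (adjusted p = 0.12). Among the mitochondrial genes MT-ATP8, a subunit of ATP synthase whose gene overlaps MT-ATP6, rose by 1.13 ± 0.21 (adjusted p = 0.03), at 2.96 to 4.07 CPM with ZA and 0 to 2.25 CPM without. The genes that fell were SF3B5, a small subunit of the splicing factor SF3b, by 0.25 ± 0.05 (adjusted p = 0.038) and VMA21, an assembly factor of the vacuolar proton pump, by 0.22 ± 0.05 (adjusted p = 0.043). All 85 were among the 1548 genes called when ZA 1 was left out as well. With the offset that fit called 709 higher (4.64%) and 839 lower (5.49%) of 15284. It reuses the other 9 libraries, so the overlap is not independent support. Leaving out the other libraries was not run with the offset.

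**Figure D3:**
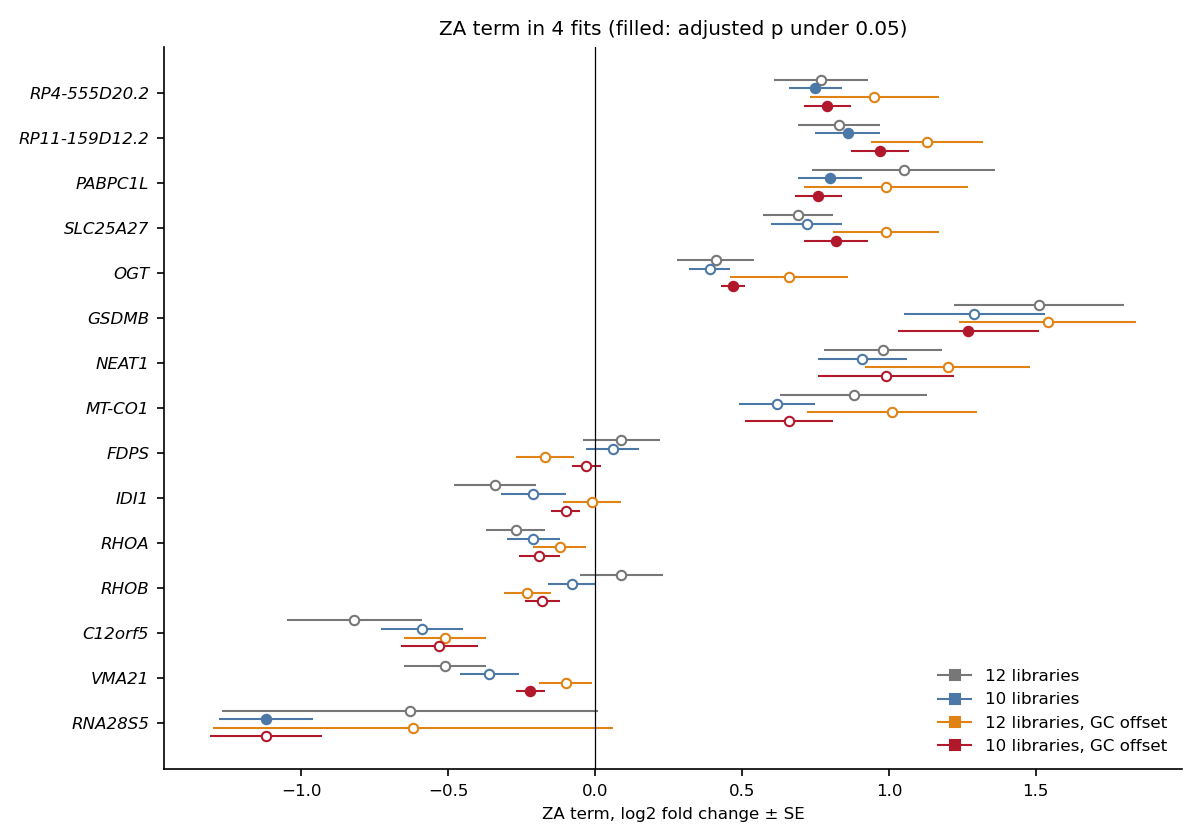
ZA term (log2 fold change ± SE) of 15 genes in 4 edgeR fits: 12 libraries, 10 libraries, and each with a GC offset; filled points have an adjusted p under 0.05. No point is filled with 12 libraries, and the SE of PABPC1L narrows from 0.31 with 12 libraries to 0.08 with 10 libraries and the offset.

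A list of 30 genes held SR proteins and splicing speckle regulators, which act on pre-messenger RNA in the nucleus, and also OGT. Like the other lists, it was chosen with earlier results of these data known. None was called with 12 or 10 libraries. In the 10-library fit with the GC offset 4 rose, where 0.541% of all genes were called higher. In that fit 27 of 30 (90.0%) lay above 0 against 49.9% of all genes, and the median was 0.18 against -0.00. These 4 were LUC7L3, PNISR, DDX39B and OGT, of which OGT is a sugar-transferring enzyme and neither an SR protein nor a splicing factor. LUC7L3, a relative of a yeast splicing factor of the U1 particle, was at 87.6, 132.9 and 99.4 CPM in vehicle, 125.5, 114.6 and 124.5 CPM in SFN, 133.4, 116.9 and 109.9 CPM in ZA and 125.6, 137.5 and 142.5 CPM in SFN+ZA. Its groups overlapped at these levels, and the ZA term was 0.36 ± 0.04 with the offset (adjusted p = 0.00071) and 0.23 ± 0.08 without it (adjusted p = 0.36). PNISR, a speckle protein, and DDX39B, a helicase of splicing and export of messenger RNA, rose by 0.40 ± 0.06 and 0.37 ± 0.07. NKTR, a cyclophilin with an SR domain, rose by 0.47 ± 0.05 in the same fit (adjusted p = 0.0005; edgeR quasi-likelihood test), and SEC22C overlaps it on the other strand. SRSF3, an SR protein, went the other way without being called, at -0.49 ± 0.17 with 12 libraries and -0.22 ± 0.09 with 10. The list's medians without the offset were 0.06 with 12 libraries and 0.08 with 10.

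Genes of the pathway that zoledronic acid blocks were not called by edgeR with 12 or 10 libraries, with or without the GC offset. FDPS (chr1:155278539-155290457, plus strand, GRCh37), which encodes the target enzyme, was at 103.5, 113.2 and 89.5 CPM in vehicle, 80.9, 61.4 and 77.1 CPM in SFN, 79.3, 95.2 and 99.3 CPM in ZA and 102.5, 85.2 and 89.6 CPM in SFN+ZA. The groups overlapped, and the ZA term was 0.09 ± 0.13 with 12 libraries (adjusted p = 0.63) and 0.06 ± 0.09 with 10 (adjusted p = 0.75; edgeR quasi-likelihood test); its sign turned with the GC offset (-0.17 with 12 libraries, -0.03 with 10). Of the 9 tested mevalonate pathway genes 4 lay above 0 in either fit, with medians of -0.24 and -0.04. IDI1, which interconverts the isopentenyl diphosphate isomers, had -0.34 ± 0.14 and -0.21 ± 0.11. HMGCS1, a synthase early in the pathway, had -0.24 ± 0.14 and -0.04 ± 0.08, and GGPS1, which makes geranylgeranyl diphosphate, -0.36 ± 0.18 and -0.10 ± 0.08; with 12 libraries and the GC offset they were at 0.14 and 0.04, above and below the 0.09 of all genes.

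After farnesyl diphosphate, 12 sterol enzymes had medians of 0.16 and 0.01. FDFT1, squalene synthase, was at 201.0, 299.9 and 207.3 CPM in vehicle, 197.0, 256.8 and 193.2 CPM in SFN, 191.2, 184.4 and 184.9 CPM in ZA and 169.0, 177.6 and 176.1 CPM in SFN+ZA. No library with ZA reached the lowest without it, SFN 3, yet the term was not called at -0.32 ± 0.12 with 12 libraries (adjusted p = 0.28) and -0.15 ± 0.06 with 10 (adjusted p = 0.36; edgeR quasi-likelihood test). SQLE, the next enzyme, had -0.20 ± 0.13 and -0.06 ± 0.08, with 0.01 for 12 libraries and the GC offset (all genes 0.09). The 18 SREBP regulators and targets had medians of -0.00 and 0.04 and the 8 LXR targets 0.10 and -0.02; NR1H3, which encodes LXR alpha and overlaps ACP2, had 0.54 ± 0.18 and 0.33 ± 0.13.

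Prenyltransferases and CAAX-processing enzymes, which attach and trim the lipid groups, gave 0 calls among 17 tested in the 12- and 10-library fits. At an unadjusted p under 0.05 there were 0 higher and 7 lower with 12 libraries (0.0% and 41.2%, against 5.6% and 11.8% of all genes), and 1 higher and 4 lower with 10 (5.88% and 23.5%, against 7.11% and 5.26%). Their median was -0.26 with 12 libraries, -0.11 with 10, and 0.03 with 12 libraries and the GC offset, where that of all genes was 0.09. With 10 libraries and the offset it was -0.09 against -0.00 for all genes. There 5.88% were higher and 23.5% lower at an unadjusted p under 0.05, against 7.4% and 7.79% of all genes. NUS1, a subunit of the prenyltransferase that makes dolichol, had -0.53 ± 0.19 with 12 libraries and -0.27 ± 0.13 with 10. Of the prenylated GTPases themselves, RHOA was at 867.5, 1129 and 980.1 CPM in vehicle, 984.4, 1044 and 954.2 CPM in SFN, 1001, 835.2 and 771.1 CPM in ZA and 729.7, 820.9 and 796.1 CPM in SFN+ZA. ZA 1 lay within the range without ZA and the other 5 below it, and the terms were -0.27 ± 0.10 (adjusted p = 0.28) and -0.21 ± 0.09 (adjusted p = 0.39). CDC42 had -0.28 ± 0.11 and -0.21 ± 0.07, and 0.00 with 12 libraries and the offset (all genes 0.09), and RAP1A -0.65 ± 0.24 and -0.29 ± 0.13. RHOB, a GTPase often raised when prenylation is blocked, had 0.09 ± 0.14 with 12 libraries but -0.08 ± 0.08 with 10. The 14 Ras and Rap genes had medians of -0.30 and -0.11, with no call in either fit. With the GC offset their medians were -0.00 with 12 libraries and -0.08 with 10. In the latter fit 0.0% were higher and 35.7% lower at an unadjusted p under 0.05, against 7.4% and 7.79% of all genes.

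Lists of YAP and TEAD targets and of butyrophilins held no edgeR call with 12 or 10 libraries. Voom with sample quality weights on 12 libraries put 5430 genes past the threshold, 17.1% of all genes higher and 18.8% lower. Genes it called higher had a median of 57.1% GC and those it called lower 40.9%. Among these were IDI1, FDFT1, NR1H3, NUS1, RHOA, CDC42, RAP1A, CYR61, BTN3A1, BTN2A1 and MICA, but not FDPS, GGPS1, HMGCS1, SQLE, RHOB, KLF2 or CTGF. Among 16 YAP and TEAD targets the median was -0.03 in both fits; CTGF, a matricellular factor, had -0.19 ± 0.11 and -0.06 ± 0.07, and CYR61, a related factor, 0.18 ± 0.11 and 0.11 ± 0.09. KLF2, a transcription factor raised by statins in endothelial cells, had 0.39 ± 0.56 with 12 libraries and -0.13 ± 0.13 with 10, with vehicle 2 at 8.13 CPM and SFN 2 at 1.59 CPM against 27.8 to 46.5 CPM in the other 10 libraries. Of 13 tested butyrophilins and stress ligands 10 and 9 lay above 0 (76.9% and 69.2%, against 51.7% and 49.2% of all genes), with medians of 0.15 and 0.08. With 10 libraries and the GC offset 53.8% lay above 0, against 49.9% of all genes. In the 10-library fit 38.5% lay above 0 without SFN and 84.6% with it, against 47.6% and 50.9% of all genes. BTN3A1, the butyrophilin that binds isopentenyl diphosphate, ran from 30.0 to 40.1 CPM with ZA and 26.6 to 37.8 CPM without (0.14 ± 0.12 and 0.12 ± 0.10). BTN2A1, its partner in that recognition, had 0.38 ± 0.15 and 0.21 ± 0.10, and MICA, a stress ligand whose gene overlaps HCP5, 0.43 ± 0.16 and 0.30 ± 0.14, none of them called by edgeR.

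**Figure D4:**
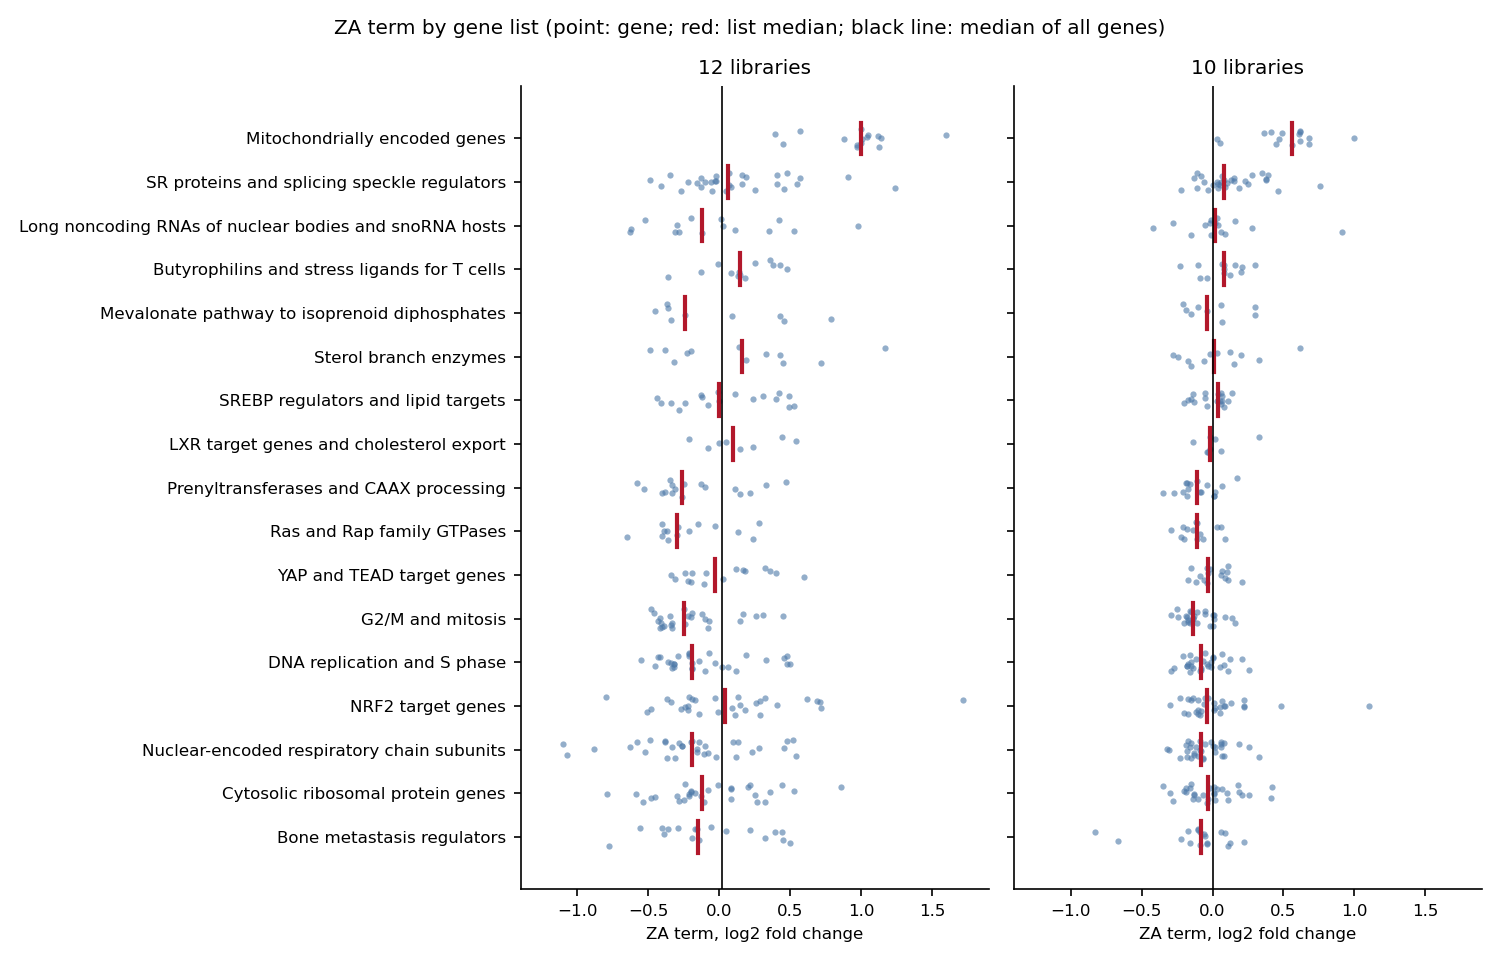
ZA term (log2 fold change) of each tested member of 17 gene lists with 12 libraries and with 10; red marks are list medians and the black line the median of all genes tested. The mitochondrially encoded genes have medians of 1.00 and 0.56, and most other lists draw closer to 0 with 10 libraries.

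NRF2 targets, cell cycle genes and regulators of bone metastasis were described for the ZA term as well. Of 30 NRF2 targets 0 were called with 12 and 10 libraries, at medians of 0.04 and -0.04. ABCC3, an efflux pump among them, was at 88.1, 68.5 and 73.6 CPM in vehicle, 103.8, 31.9 and 105.9 CPM in SFN, 99.9, 115.0 and 119.4 CPM in ZA and 168.7, 129.0 and 155.2 CPM in SFN+ZA. Within each SFN level the libraries with ZA were higher, and ABCC3 rose by 0.40 ± 0.05 with 10 libraries and the GC offset (adjusted p = 0.002; edgeR quasi-likelihood test), against 0.48 ± 0.09 without the offset (adjusted p = 0.087). ME1, the cytosolic malic enzyme, had -0.48 ± 0.15 with 12 libraries and -0.30 ± 0.11 with 10. The 26 genes of G2/M and mitosis had medians of -0.25 and -0.14, and 0.00 against 0.09 for all genes with 12 libraries and the GC offset. With 10 libraries and the offset their median was -0.04 against -0.00. At an unadjusted p under 0.05, 7 were lower with 12 libraries (26.9%, against 11.8% of all genes) and 5 with 10 (19.2%, against 5.26%), and none was higher in either (against 5.6% and 7.11%). CCNB1, the mitotic cyclin B1, had -0.40 ± 0.13 and -0.25 ± 0.09. The 30 replication genes had medians of -0.19 and -0.08, with RFC3, a clamp loader subunit, at -0.55 ± 0.18 and -0.29 ± 0.11, and GINS3, of the replicative helicase, at -0.34 ± 0.11 and -0.27 ± 0.10. The GINS3 levels with and without ZA did not overlap.

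Cytosolic ribosomal protein genes numbered 30 and had medians of -0.12 and -0.03, and RPS27A had -0.54 ± 0.20 and -0.28 ± 0.10. Among 18 regulators of bone metastasis, the setting in which bisphosphonates are used, the medians were -0.15 and -0.08. TNFRSF11B, which encodes the decoy receptor osteoprotegerin, lay at 0.443 to 1.36 CPM with ZA and 1.36 to 2.07 CPM without and met at their ends, with terms of -0.78 ± 0.25 (adjusted p = 0.28) and -0.83 ± 0.28 (adjusted p = 0.34; edgeR quasi-likelihood test). IL8, the neutrophil chemokine now named CXCL8, had -0.54 ± 0.18 and -0.29 ± 0.12.

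ZA was next compared with and without SFN, since an additive term describes both levels only where they do not differ. The interaction was called for 0 genes with 12 libraries (0.0%; 257 at an unadjusted p under 0.05, lowest adjusted p = 0.9) and for 0 with 10 (0.0%; 1036, lowest adjusted p = 0.56; edgeR quasi-likelihood test). DESeq2 called 0 with 12 libraries and 1 with 10. These misses do not show that the levels act alike. The ZA effect without SFN (ZA against vehicle) and with SFN (SFN+ZA against SFN) share no library. Across 15142 genes, which are not independent replicates, Pearson's r between them was 0.534 and Spearman's rho 0.636. Across 15353 genes without vehicle 2 and SFN 2 they were 0.163 and 0.154. The median size of the log2 fold change was 0.182 without SFN and 0.460 with it from 12 libraries, and 0.0973 and 0.246 from 10.

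The genes named next kept their direction at both levels in the 10-library fit. Most of them were picked by their ZA term over these same libraries. A shared direction follows largely from that choice and is no separate support. SLC25A27 had 0.97 without SFN and 0.50 with it, and its interaction of -0.47 ± 0.20 was not called (adjusted p = 0.59; edgeR quasi-likelihood test). PABPC1L had 0.66 and 0.94, NEAT1 0.79 and 1.04, and GSDMB 1.16 and 1.42. RNA28S5 had -0.97 and -1.26. MT-CO1 had 0.81 and 0.44.

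**Figure D5:**
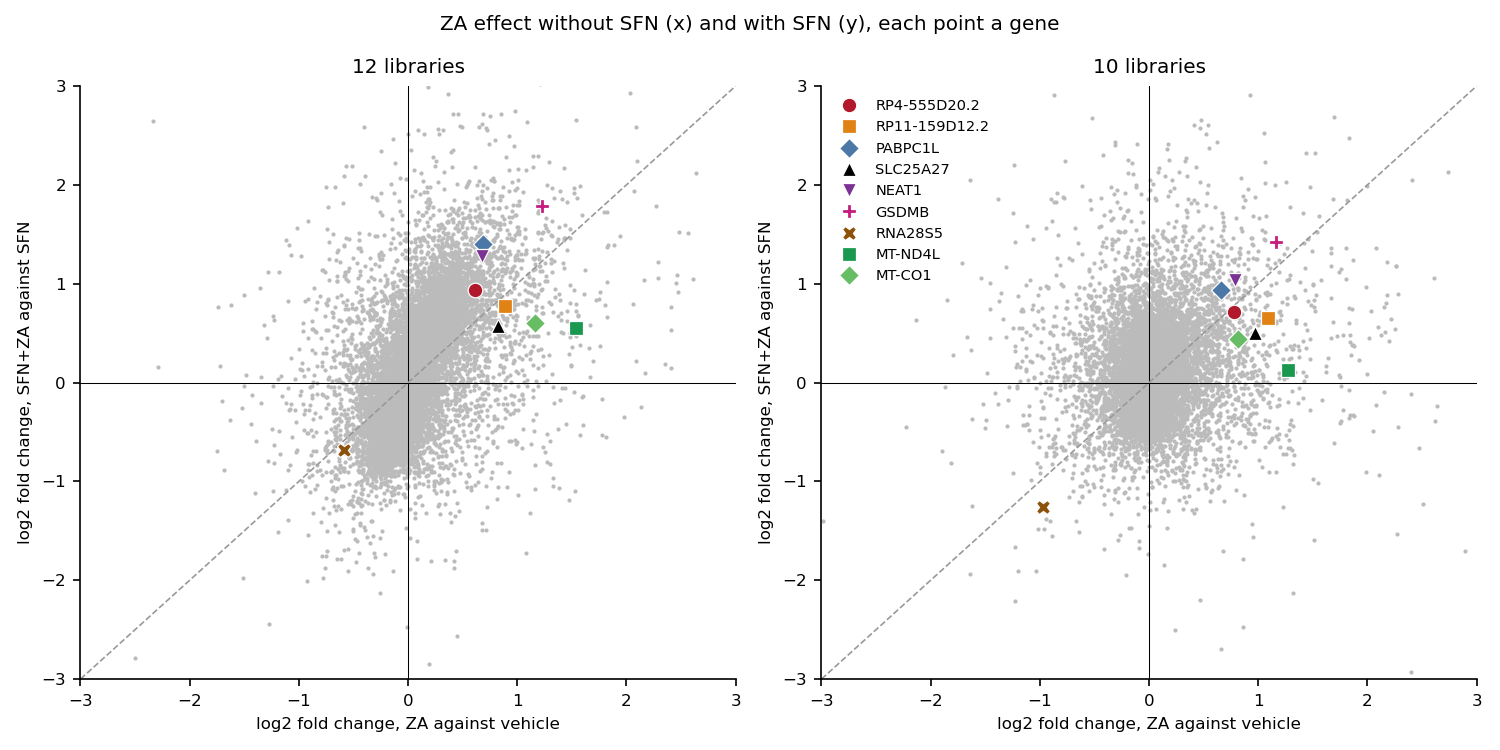
Each grey point is a gene, with the log2 fold change of ZA against vehicle on the x axis and of SFN+ZA against SFN on the y axis, from 12 libraries (left) and 10 (right); 9 genes are coloured and the dashed line marks equal change. Pearson's r is 0.534 on the left and 0.163 on the right, and MT-ND4L lies at 1.27 on x and 0.13 on y in the right panel.

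Across all genes the ZA term followed GC content. In the 12-library fit genes were split by GC content into 5 bins of nearly equal size; 10.8% of the lowest bin lay above 0 (median -0.31) against 97.1% of the highest (median 0.53). With 10 libraries these shares were 17.9% (median -0.14) and 82.9% (median 0.16), and with the GC offset as well 46.2% and 53.5%. Spearman's rho across genes between GC content and the ZA term was 0.739 with 12 libraries and 0.506 with 10. With 10 libraries rho was 0.057 for the ZA effect without SFN and 0.584 for the effect with SFN; with 12 libraries these were 0.534 and 0.761. SLC25A27 has 42.2% GC, RP11-159D12.2 41.5%, OGT 42.9% and NEAT1 44.1%, while PABPC1L has 52.5%, L3MBTL1 54.0% and GABBR1 55.8%. By class, 10 mitochondrial transfer RNAs had a median ZA term of 1.13 with 12 libraries and 0.80 with 10, with 100% and 80% above 0. Antisense RNAs (700 with 10 libraries) had medians of 0.26 and 0.15, lincRNAs (632) 0.07 and 0.07, and protein-coding genes (12807) -0.00 and -0.01; without a strand setting, antisense counts are uncertain.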

How the data were processed

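RNA of 12 samples was made into Illumina libraries, per the labels' protocols. The authors aligned with HISAT2 to GRCh37/hg19, per the submitters' processing notes, and deposited whole-number read counts per gene, which were analysed. The strand setting, library kit, counting tool and annotation release are not given in the sources used here. Deposited FPKM values and gene lengths entered no test, and the authors' deposited log2 fold changes and their p-values are quoted only for ZA against vehicle and SFN+ZA against SFN. Every per-sample column had a sample (0 without one). Members, lists and the rule for named genes were chosen with earlier results of these data known.

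Genes passing filterByExpr were TMM-scaled and tested with edgeR 4.0.16 in R 4.3.3 (robust quasi-likelihood F test, two-sided, additive SFN and ZA terms, Benjamini-Hochberg adjustment over all genes tested, called under 0.05). SE is the absolute log2 fold change over the root of F, and CPM used TMM-scaled totals. The GC offset was a lowess curve (span 0.3) per library against transcript GC content, known for 97.4% of tested genes; RNA28S5 had none. DESeq2 1.42.0, limma 3.58.1 with sample quality weights, DESeq2 size factors, no filter, 1 CPM in 3 libraries, a replicate block and leaving out each library were alternatives. Fits without vehicle 2 and SFN 2, and those without ZA 1 with the offset, respond to earlier results or were chosen after seeing the data. Named genes were the 10 protein-coding genes with the lowest unadjusted p per direction at a mean of 1 CPM or more with 12 or 10 libraries, up to 3 per list, and a fixed set; not all are printed, and some are not reported here. RNA28S5, both lincRNAs, LUC7L3, NKTR, MALAT1, SF3B5, DDX39B and MT-ATP8 fell outside it and were chosen after their values were seen. The GC content, GENCODE 29 transcripts and RefSeq promoters came from reference tables. Replicate libraries differed by more than counting noise (lowest chi-square per gene 3.36). The code was tested on simulated counts.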

Additional observations from a re-analysis of the deposited data

How the results depend on the processing

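Counts of called genes moved with the setting. With 12 libraries each edgeR setting tried called 0 genes, also when any 1 library was left out (0 to 0); voom with sample quality weights called 2588 higher and 2842 lower, and the DESeq2 Wald test 16 and 0. Without vehicle 2 and SFN 2 there were 3 higher and 1 lower, and 83 and 2 with the GC offset. From those 10 libraries the Wald test called 156 higher and 10 lower, no low-count filter 458 and 59, voom 2674 and 2881, and 1 CPM in 3 libraries left 0 lower. Leaving out 1 of the 10 gave 0 to 1232 higher and 0 to 1438 lower; without ZA 1 and with the offset there were 709 and 839. The cause was not tested. The interaction was called for 0 to 0 genes on leaving out 1 library. ZA 1 had a voom weight of 0.181 among the 10.

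The replicate number as a block gave 0 higher and 0 lower with 10 libraries, and 21 and 0 with the GC offset. Whether the numbers pair the samples is not settled: of 18 same-number pairs 9 had a correlation of deviations over 0.1 (-0.478 to 0.604). Vehicle with SFN gave 0.576, 0.604 and 0.258 for replicates 1, 2 and 3, while vehicle with ZA gave -0.478, -0.22 and 0.108.

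Of 1426 values for 62 genes 1317 kept their direction and side of the threshold, 83 passed the threshold anew and 26 changed sign. The sign of 54 genes never changed. The 12-library edgeR fit, to which these values were compared, called 0 genes, so keeping the side of the threshold meant staying uncalled. Many of the 62 were chosen by a low p in the same libraries, so a kept sign is no separate support. With the GC offset, without and with the block, CDC42 went to 0.00 and 0.01, FDPS to -0.17 and -0.16, GGPS1 to 0.04 and 0.04, HMGCS1 to 0.14 and 0.14, SQLE to 0.01 and 0.01, and RHOB to -0.23 and -0.23. With 10 libraries and the offset FDPS was at -0.03, GGPS1 0.01, HMGCS1 0.08, RHOB -0.18 and KLF2 -0.30; with 10 alone RHOB was at -0.08 and KLF2 -0.13. Voom gave RHOB -0.05, KLF2 -0.01 and MALAT1 -0.01. Leaving out 1 library took FDPS from -0.00 to 0.15, RHOB from -0.02 to 0.14 and MALAT1 from -0.03 to 0.08. Genes near 1 CPM, such as GSDMB and HIST1H3H, rest on few reads.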

Other observations

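The authors' deposited table called 0 genes for ZA against vehicle and, for SFN+ZA against SFN, 9 higher and 1 lower. The lowest adjusted p in the authors' deposited table there was that of FAM207A, with a log2 fold change of 2.73 (adjusted p = 8.8e-09). FAM207A was at 2.32, 1.02 and 2.19 CPM in SFN and 12.8, 12.3 and 11.3 CPM in SFN+ZA, but at 13.2, 1.18 and 7.69 CPM in vehicle and 2.13, 11.6 and 15.6 CPM in ZA, so ZA 1 lay with the SFN libraries and vehicle 1 with the combination. MT-TC, the mitochondrial transfer RNA for cysteine, had 2.03 in the authors' deposited table, at 14.4 to 26.1 CPM in SFN and 66.9 to 80.4 CPM in SFN+ZA, and ZA 1 at 16.3 CPM again lay far below ZA 2 (58.4 CPM) and ZA 3 (69.0 CPM). FKBP2, EDF1, POLR2L, NHP2 and SART1 had the same order of libraries within ZA, with ZA 1 below ZA 2 and ZA 3. These genes were chosen because that table called them, after their values were seen.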
